A study of Homo sapiens with 9 samples.

Results

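RNA interference is carried out by a short chain of proteins, and the 10 genes described here encode its core: the nuclear RNase III DROSHA and its RNA-binding partner DGCR8, the export receptor XPO5, the cytoplasmic RNase III DICER1 and its partner TARBP2, the 4 Argonaute proteins AGO1 to AGO4, and the silencing scaffold TNRC6A. They were taken by gene name from the deposited count table, which held all 10 among its 58735 genes, and all 10 were among the 17023 genes that passed the filter on low counts. Measurements came from poly-A RNA sequencing of OVCAR3, an established human cell line from a high-grade ovarian carcinoma, at 72 h in culture. A scramble hairpin control, described by the labels as wild type, and 2 hairpins against GPX3, which are numbered 76 and 78 and labelled GPX3 knock-down, made up the groups, with 3 replicates in each. They are called scramble, sh76 and sh78. All 9 libraries thus carry a short hairpin RNA, the scramble control included, so these data hold no library of cells without one. The labels do not say how the hairpins were delivered, whether lines are pools or clones, or whether replicates are separate cultures, and p-values measure only the spread between these samples.

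In animal cells the microprocessor, made of DROSHA and DGCR8, cuts hairpins out of primary microRNA transcripts in the nucleus. Exportin 5 carries the hairpins to the cytoplasm, where DICER1 removes the loop and the resulting duplex is loaded into an Argonaute protein. The loaded Argonaute finds mRNAs through the seed of the small RNA and, through the TNRC6 proteins, brings in deadenylases and decapping factors. Most vector-encoded short hairpins enter the same route, at the microprocessor or at the export step depending on their design, which is why these genes bear on an experiment that uses hairpins as its tool. Among the human Argonautes, AGO2 is the one best known for cutting a fully matched target.

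Library totals ran from 14652965 to 21327562 counts, and a level of 1 CPM (a library-scaled count, with TMM factors) stood for 14.5 to 21 counts. The members had 266 to 4252 counts per library. GPX3, the targeted gene, had 173, 109 and 117 CPM in the scramble libraries, 56.8, 55.2 and 55.5 CPM with sh76 and 35.3, 28.4 and 28.3 CPM with sh78, so that every hairpin library lay below every scramble library. The 12 ovarian carcinoma markers that were checked (PAX8, MUC16, WFDC2 and others) were present in every library. They summed to 12640 to 13390 CPM with scramble, 11400 to 12280 with sh76 and 10580 to 11100 with sh78, so this sum moved with the groups. The markers did not all move alike. Against scramble, FOLR1, KRT8, KRT18 and EPCAM were lower with sh78 at an edgeR adjusted p under 0.05 (log2 fold changes −1.08, −0.52, −0.46 and −0.33). PAX8, MUC16, WFDC2 and KRT7 lay above 0 there (0.09, 0.06, 0.16 and 0.16), and the rest below 0, all short of that threshold. With sh76, FOLR1 (−1.12) and PAX8 (−0.28) were lower at that threshold. Summed levels were far lower for the 6 fibroblast markers (27.6 to 55.2 CPM, most of it COL1A1), the 5 leukocyte markers (2.25 to 4.85 CPM) and the 4 endothelial markers (17 to 31.9 CPM, highest with sh78). The part of these markers in the results was not tested, and in bulk RNA fewer cells of a type and less RNA per cell cannot be told apart.

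MicroRNAs whose precursors sit in the genes below are shown first, because DGCR8, a member, carries hairpins in its own exons and because MIR100HG, the host transcript that passed the test, is known by the microRNAs in it. Sequences are RefSeq's (GRCh38.p14), 5′ to 3′, with the seed, bases 2 to 8, in capitals. DGCR8 (chromosome 22) holds 2 hairpins in its exons, MIR3618 in an untranslated part and MIR1306 in the coding part. The microprocessor is known to cut hairpins in this mRNA, which ties the level of DGCR8 to the activity of its own complex.
hsa-miR-3618: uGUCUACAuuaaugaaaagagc
hsa-miR-1306-5p: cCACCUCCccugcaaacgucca
hsa-miR-1306-3p: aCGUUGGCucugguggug

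The introns of MIR100HG (chromosome 11) hold the hairpins of 3 widely studied microRNAs, whose main products are given next. Their 3 seeds differ from each other.
hsa-miR-100-5p: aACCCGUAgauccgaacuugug
hsa-let-7a-5p: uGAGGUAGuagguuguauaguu
hsa-miR-125b-5p: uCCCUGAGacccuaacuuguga

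These mature sequences lie at chr22:20085797-20085818 (miR-3618), chr22:20086072-20086093 and chr22:20086112-20086129 (the arms of miR-1306), all on the plus strand. On the minus strand are chr11:122152275-122152296 (miR-100-5p), chr11:122146568-122146589 (let-7a-5p) and chr11:122099809-122099830 (miR-125b-5p). The table counts the hairpins MIR3618, MIR1306, MIR100, MIRLET7A2 and MIR125B1 as genes of their own, and each had 0 counts over the 9 libraries together. MIR3618 and MIR1306 share 88 and 85 exonic bases with DGCR8 on the same strand. How reads in such shared stretches were counted is not given, so these 0 counts do not give a level. Mature microRNAs carry no poly-A tail, and their levels were not measured here.

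Compared per length, the members differed widely in level in the scramble libraries. In FPKM (the authors' fragment counts scaled to gene length and library size), DROSHA was the most abundant, at 14.8 ± 0.665 (SD, n = 3). AGO2 followed at 12.3 ± 1.39, DICER1 at 10.1 ± 0.121, XPO5 at 9.95 ± 0.744 and TARBP2 at 7.91 ± 0.759. DGCR8, TNRC6A and AGO1 lay close together, at 5.47 ± 0.472, 5.22 ± 0.382 and 4.88 ± 0.436, and their ranges overlapped. AGO4 was at 3.41 ± 0.263 and AGO3 at 1.75 ± 0.466. DICER1 and XPO5 also had overlapping ranges, so the order of these 2 within the scramble group is not resolved. Among the 17023 genes tested, the scramble level of DROSHA exceeded that of 81.3% of genes and the level of AGO3 that of 35.2%. The lengths behind these values are the union of all annotated exons, 21157 bases for AGO3 against 7267 for AGO4, so a gene that uses only part of its annotated exons is understated.

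**Figure D1:**
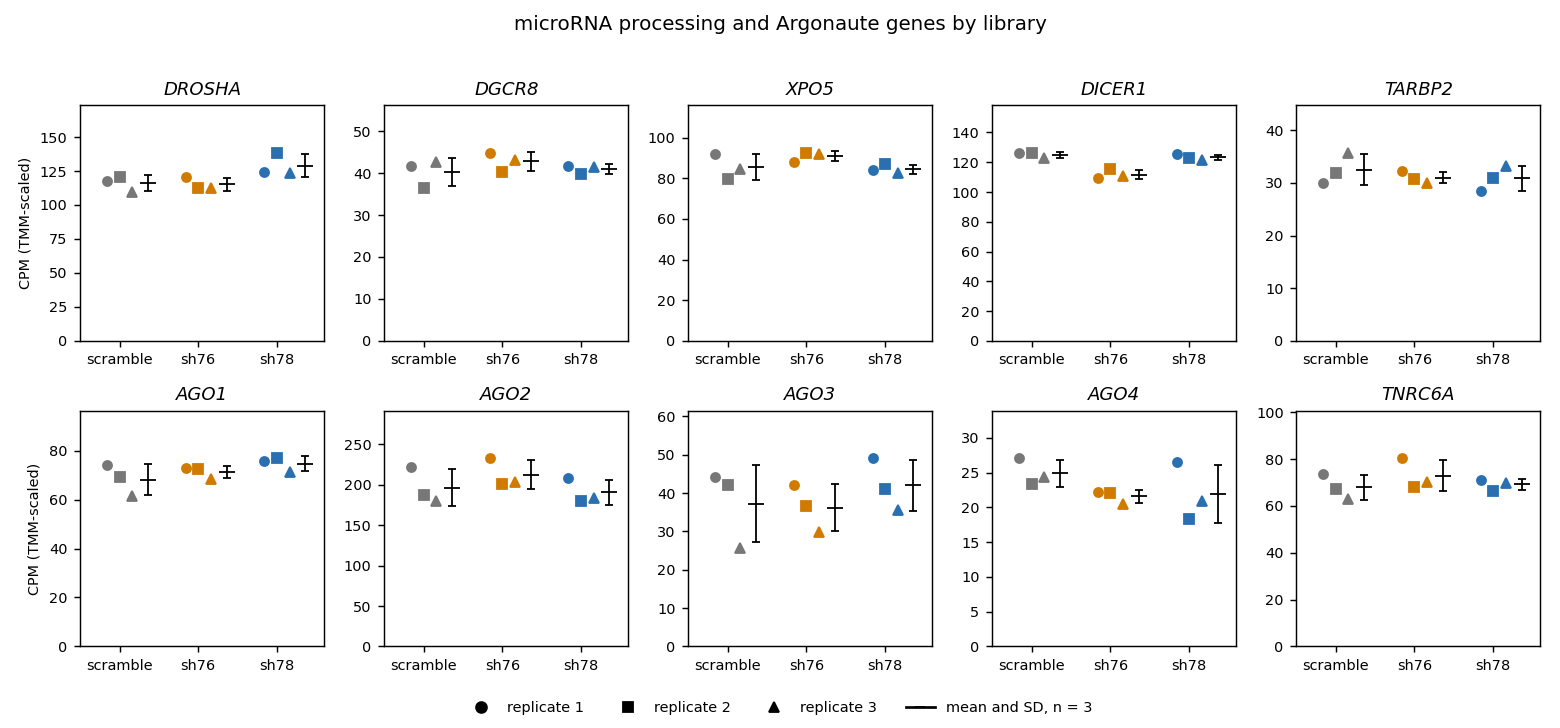
CPM (TMM-scaled, vertical axis from 0) of the 10 genes in each of the 9 libraries, by group, with symbols for the replicate number and a bar for the mean and SD of 3. Groups sit at similar heights in every panel; DICER1 is lower in all 3 sh76 libraries, and AGO3 spreads from 25.7 to 49.1 CPM.

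The first question is whether the machinery that handles the hairpins differed in level between cells with different hairpins. None of the 10 genes (0) was called in any of the 3 comparisons by the edgeR quasi-likelihood test at an adjusted p under 0.05, where 3.58% of all genes tested were called for sh76 against scramble, 4.41% for sh78 against scramble and 3.7% for sh78 against sh76. By direction, these were 1.43% higher and 2.16% lower with sh76, 1.85% higher and 2.56% lower with sh78, and 1.97% higher and 1.72% lower with sh78 than sh76. DESeq2 and limma on log2 FPKM also called 0 of the 10 in each. At an unadjusted p under 0.05 edgeR found 1, 1 and 2 of the 10, against 17.4%, 17.5% and 16.3% of all genes. The log2 fold changes were split evenly, 5 above 0 and 5 below 0 in each comparison. Their medians were 0.03, 0.01 and 0.01, and over all genes tested the medians were 0.01, 0.01 and 0. In absolute size the members' median log2 fold change was 0.09, 0.06 and 0.09, against 0.15, 0.15 and 0.14 for all genes.

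A missed threshold does not show equal levels, so the intervals are given. In each comparison, 9 of the 10 members had a 95% interval that lay inside a log2 fold change of 0.5 either way, which was so for 52.9%, 52.2% and 53.2% of all genes tested. The exception was AGO3 each time. The members were also measured more closely, with a median standard error of 0.083, 0.084 and 0.083 against 0.138, 0.139 and 0.139 for all genes. Neither these shares nor the absolute sizes above were adjusted for that, so they do not show the members to be steadier than other genes. The replicate numbers in the labels behaved as pairs across the groups, and a model that carried this number as a block called 20.4%, 19.9% and 18.3% of all genes. That fit called 2, 1 and 4 of the 10 members, with log2 fold changes no larger than 0.22 in size, and they are named with their genes below.

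**Figure D2:**
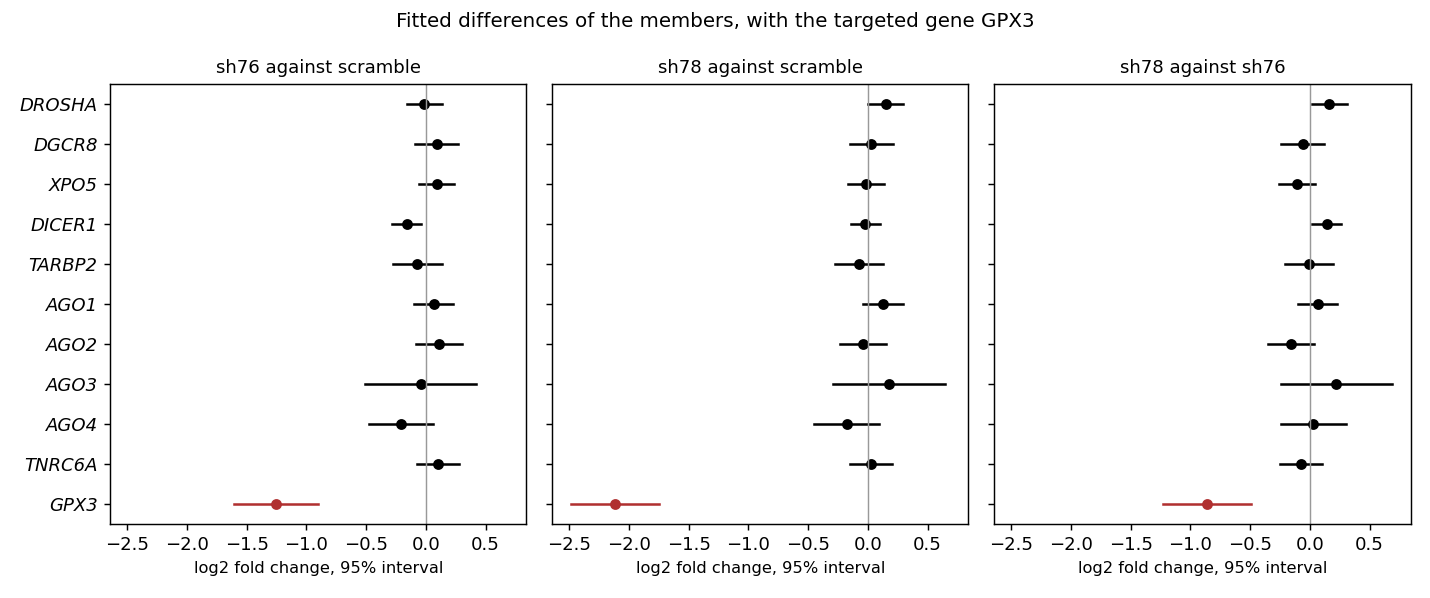
Fitted log2 fold change (horizontal axis) with its 95% interval for each member and for GPX3 (red) in the 3 comparisons, from edgeR over all 9 libraries. The members lie within 0.22 of 0 in every panel and AGO3 has the widest interval, while GPX3 lies at −1.25, −2.12 and −0.86.

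Of the microprocessor genes, DROSHA was highest with sh78. DROSHA (ENSG00000113360, chromosome 5, 31400497 to 31532196, minus strand, GRCh38) had 118, 121 and 110 CPM with scramble, 120, 113 and 112 CPM with sh76 and 124, 139 and 124 CPM with sh78. All 3 sh78 libraries lay above all 6 others, by the most in sh78 replicate 2. Groups that do not overlap, with sh78 higher, were seen in 10.2% of all genes against scramble and in 10.9% against sh76 (21.5% and 21.8% in either direction). The log2 fold change of DROSHA was 0.15 against scramble (95% interval 0.00 to 0.30, edgeR adjusted p 0.27) and 0.16 against sh76 (0.02 to 0.31, edgeR adjusted p 0.244). With the replicate block both were called (edgeR adjusted p 0.0232 and 0.0141), at log2 fold changes of 0.15 and 0.16, and DROSHA was higher in all 3 same-numbered pairs of each comparison. Between sh76 and scramble it was level, with a log2 fold change of −0.01 (−0.16 to 0.13).

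DGCR8 (ENSG00000128191, chromosome 22, 20080232 to 20111877, plus strand), the host of miR-3618 and miR-1306, had 36.4 to 42.6 CPM with scramble, 40.3 to 44.9 CPM with sh76 and 39.7 to 41.8 CPM with sh78. The 3 ranges overlapped. Its log2 fold changes of 0.09 (95% interval −0.09 to 0.27) with sh76 and 0.03 (−0.15 to 0.21) with sh78 against scramble were not called by edgeR (adjusted p 0.644 and 0.913). DGCR8 shares 12 exonic bases with TRMT2A on the other strand, which had 520 to 767 counts, and the libraries carry no strand. A longer stretch, 526 exonic bases, is shared with AC006547.2 on the other strand, which had 0 counts. MIR3618 and MIR1306 share a further 88 and 85, so reads in these stretches could not be assigned to 1 gene.

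XPO5, the export receptor for hairpin precursors, also stayed within narrow bounds. XPO5 (ENSG00000124571, chromosome 6, 43522330 to 43576075, minus strand) had 92.1, 79.4 and 84.4 CPM with scramble, 88.1, 92.6 and 91.8 CPM with sh76 and 83.9, 86.9 and 82.4 CPM with sh78. Every sh78 library was below every sh76 library, as was so for 10.9% of all genes, with a log2 fold change of −0.11 between them (95% interval −0.25 to 0.04, edgeR adjusted p 0.502). Against scramble the values were 0.09 (−0.06 to 0.24) and −0.02 (−0.16 to 0.13). XPO5 shares 348 exonic bases with POLR1C on the other strand, so reads there could not be assigned by strand.

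DICER1 had the lowest unadjusted p of the members, and sh76 stood apart from both other groups. DICER1 (ENSG00000100697, chromosome 14, 95086228 to 95158010, minus strand) had 127, 126 and 123 CPM with scramble, 109, 115 and 111 CPM with sh76 and 125, 123 and 121 CPM with sh78. All 3 sh76 libraries lay below the other 6. Such a gap was seen in 11.7% of all genes for sh76 below scramble and in 10.9% for sh78 above sh76 (22.5% and 21.8% in either direction). Its log2 fold change was −0.16 for sh76 against scramble (95% interval −0.28 to −0.04, edgeR unadjusted p 0.0129, adjusted p 0.146) and 0.14 for sh78 against sh76 (0.02 to 0.26, edgeR adjusted p 0.226). With the replicate block both were called (edgeR adjusted p 0.0084 and 0.0254). Against scramble, DICER1 with sh78 differed by −0.02 (−0.14 to 0.10). The gene shares 80 exonic bases with DICER1-AS1, which runs on the other strand and had 82 to 147 counts. An intron of DICER1 holds MIR3173, which had 2 counts in all.

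TARBP2 (ENSG00000139546, chromosome 12, 53500921 to 53506431, plus strand), which binds DICER1 and helps load Argonaute, showed no separation. It had 30 to 35.8 CPM with scramble, 30.1 to 32.2 CPM with sh76 and 28.5 to 33.2 CPM with sh78. The log2 fold changes were −0.07 (95% interval −0.27 to 0.13) and −0.08 (−0.28 to 0.13) against scramble, with edgeR adjusted p 0.768 and 0.759, and −0.01 (−0.21 to 0.20) between the hairpins.

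AGO2 supplied most of the Argonaute mRNA. AGO2 (ENSG00000123908, chromosome 8, minus strand) had 222, 187 and 180 CPM with scramble, 233, 201 and 203 CPM with sh76 and 209, 180 and 183 CPM with sh78. Replicate 1 was the highest library of each group, and the 3 groups overlapped. The log2 fold change was 0.11 for sh76 (95% interval −0.08 to 0.31) and −0.04 for sh78 (−0.23 to 0.15), with edgeR adjusted p 0.568 and 0.873. Between the hairpins it was −0.16 (−0.35 to 0.04, edgeR adjusted p 0.434), and the same-numbered differences were close to each other, at −0.16, −0.16 and −0.15. The replicate block called AGO2 for sh76 against scramble (log2 fold change 0.12, edgeR adjusted p 0.0472) and for sh78 against sh76 (−0.16, edgeR adjusted p 0.00695).

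AGO1, AGO3 and AGO4 lie side by side on the plus strand of chromosome 1, within 264329 bases, in the order AGO4 (ENSG00000134698, 35808172 to 35857890), AGO1 (ENSG00000092847, 35869808 to 35930528) and AGO3 (ENSG00000126070, 35930718 to 36072500). Only 189 bases separate the annotated end of AGO1 from the start of AGO3. As neighbours they did not share a direction in the sh78 comparison, where the log2 fold changes against scramble were −0.18 for AGO4, 0.13 for AGO1 and 0.18 for AGO3, none of them called.

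AGO1 had 74, 69.2 and 61.4 CPM with scramble, 73, 72.4 and 68.5 CPM with sh76 and 75.7, 76.9 and 71.1 CPM with sh78. The ranges overlapped, and edgeR called neither hairpin (log2 fold change 0.07, 95% interval −0.10 to 0.23, adjusted p 0.733, and 0.13, −0.04 to 0.30, adjusted p 0.437). AGO1 shares 396 exonic bases with AL139286.2 on the other strand, which had 0 counts.

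AGO4 had 27.1, 23.3 and 24.3 CPM with scramble, 22.1, 22.1 and 20.5 CPM with sh76 and 26.5, 18.3 and 21 CPM with sh78. The sh76 libraries all lay below the scramble libraries, as they did for 11.7% of all genes tested, while the sh78 libraries spread over both ranges. Its log2 fold changes of −0.21 (95% interval −0.48 to 0.06) and −0.18 (−0.45 to 0.09) were the lowest among the members against scramble, and edgeR called neither (adjusted p 0.433 and 0.537). The block did not call them either (edgeR adjusted p 0.0996 and 0.149), although AGO4 was lower in all 6 same-numbered pairs against scramble; both comparisons use the same scramble libraries.

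AGO3 varied most within groups. It had 44.1, 42 and 25.7 CPM with scramble, 42.1, 36.7 and 29.8 CPM with sh76 and 49.1, 41.2 and 35.7 CPM with sh78. Replicate 3 was the lowest library of each group and replicate 1 the highest. The log2 fold changes, −0.04 (95% interval −0.51 to 0.42) with sh76 and 0.18 (−0.29 to 0.64) with sh78, left room for a difference of some size, and edgeR called neither (adjusted p 0.949 and 0.746). Between the hairpins AGO3 was higher with sh78 in all 3 same-numbered pairs, by 0.22, 0.17 and 0.26, which the replicate block called (edgeR adjusted p 0.0308) and the fit without it did not (adjusted p 0.687).

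As a share of the summed FPKM of AGO1 to AGO4, AGO2 took 55.1% ± 1.2 with scramble, 57.7% ± 1.5 with sh76 and 53.7% ± 0.611 with sh78 (SD, n = 3). AGO1 took 21.9% ± 0.757, 22.1% ± 0.995 and 24.1% ± 1.88. The share of AGO4 was 15.3% ± 1.03, 12.8% ± 0.6 and 13.4% ± 1.53, and that of AGO3 was 7.76% ± 1.59, 7.34% ± 0.815 and 8.83% ± 0.787. AGO2 took 56% to 58.8% in the sh76 libraries, narrowly above the 53.2% to 55.8% of the other 6 libraries. AGO4 took 12.2% to 13.4% with sh76, below its 14.6% to 16.5% with scramble, while its sh78 share ran from 11.8% to 14.8%. The sum itself was 22.4 ± 2.37 FPKM with scramble, 23 ± 1.54 with sh76 and 22.2 ± 1.85 with sh78, so the group means of the Argonaute total differed by less than their SDs. These shares are descriptions of mRNA and were not tested.

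**Figure D3:**
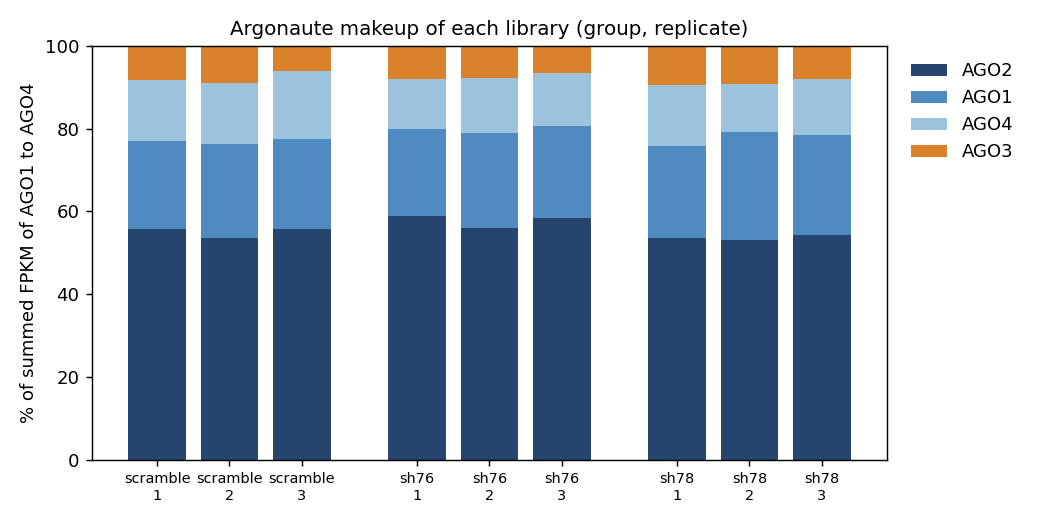
Share of each Argonaute gene (vertical axis, percent of the summed FPKM of AGO1 to AGO4) in each library, named by group and replicate. AGO2 fills 53.2% to 58.8% of every bar and AGO3 is the smallest part of each.

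TNRC6A, the scaffold that links Argonaute to deadenylation, did not separate by group. TNRC6A (ENSG00000090905, chromosome 16, 24610209 to 24827632, plus strand) had 63 to 73.4 CPM with scramble, 68.1 to 80.4 CPM with sh76 and 66.6 to 71.2 CPM with sh78. Its log2 fold changes were 0.10 (95% interval −0.07 to 0.28, edgeR adjusted p 0.575) and 0.03 (−0.15 to 0.20, edgeR adjusted p 0.914). The paralogs TNRC6B and TNRC6C, named here outside the rule for named genes, had group means of 52.1 to 56 CPM and 20.7 to 25.7 CPM, and edgeR called neither with either hairpin (adjusted p 0.667 and 0.734 for TNRC6B, 0.962 and 0.401 for TNRC6C).

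Several members, AGO2, AGO3 and TNRC6A among them, had larger fitted log2 differences between replicate numbers than between groups. In the fit with the replicate block, a test of the replicate number, chosen after the values were seen, called AGO3 (edgeR adjusted p 3.69e-07), AGO2 (adjusted p 2.62e-05) and TNRC6A (adjusted p 0.0381), which is 3 of the 10, beside 28.8% of all genes. Relative to replicate 1, AGO3 was lower by a log2 fold change of −0.17 in replicate 2 and −0.57 in replicate 3. AGO2 was lower by −0.22 and −0.23, and TNRC6A by −0.15 and −0.15. DICER1 was at 0.02 and −0.02 (edgeR adjusted p 0.79) and XPO5 at −0.03 and −0.03 (adjusted p 0.871), and neither was called. What the replicate number stands for, such as a culture, a day or a library batch, is not given in the labels.

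**Figure D4:**
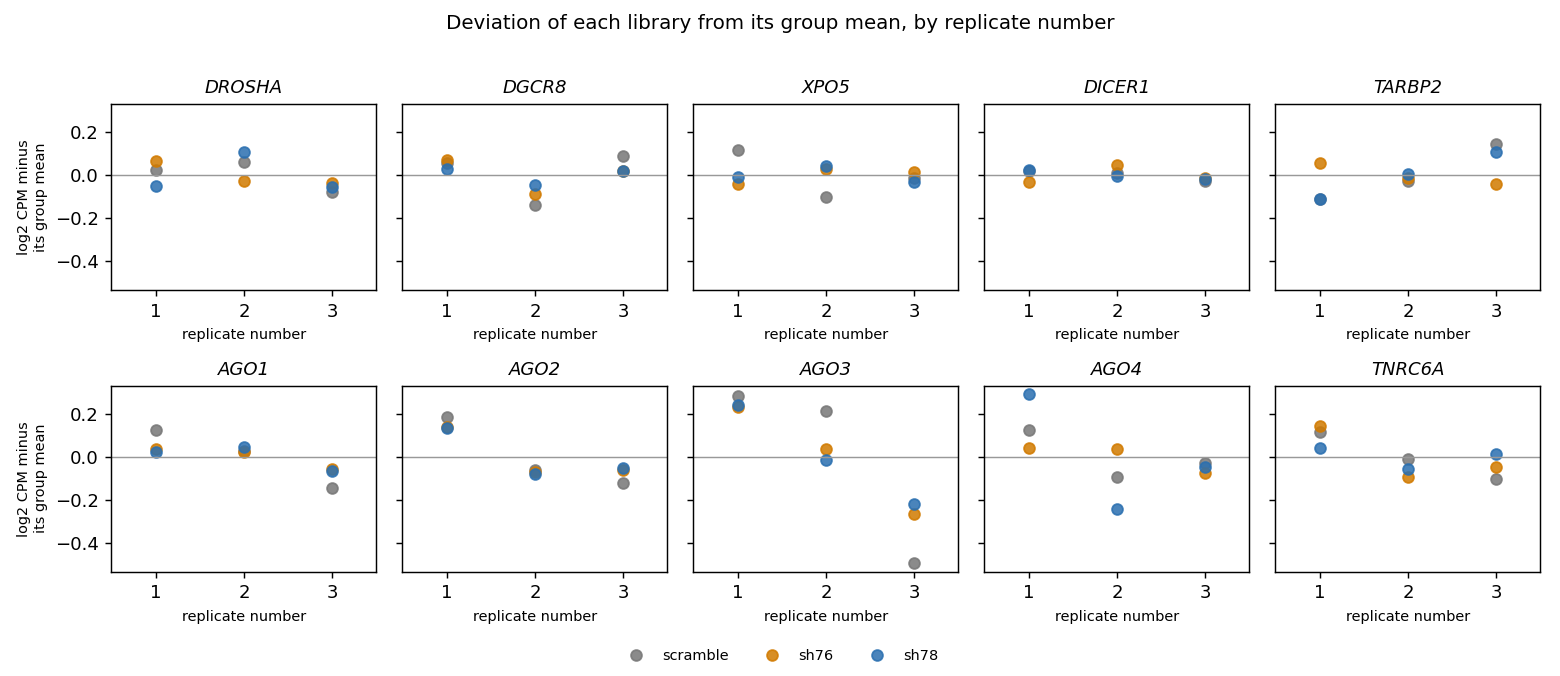
Log2 CPM of each library minus the mean of its group (vertical axis) by replicate number, with 1 point per group (colour). AGO2 and AGO3 are highest in replicate 1 in all 3 groups, AGO3 is lowest in replicate 3, and DICER1 stays near 0.

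The genes around the core were read from 6 lists of cofactors. Of their 136 genes, 135 were in the table and 120 were tested, and edgeR called 4 of the 120 for sh76, 1 for sh78 and 2 between the hairpins, beside 3.58%, 4.41% and 3.7% of all genes. With the replicate block these counts were 24, 15 and 23, beside 20.4%, 19.9% and 18.3%. The genes called without the block were 5: ADAR, ADARB1, TUT7, HSP90AA1 and MIR100HG.

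Cofactors of the microprocessor and of primary microRNA processing held 23 genes, all tested. They include the helicases DDX5 and DDX17 and splicing factors, the most abundant being HNRNPA1, ILF2, DDX5 and ERH. Of the 23, 1 fell with sh76 (ADARB1) and 1 with sh78 (ADAR), and the median log2 fold changes were 0.02 and 0.02, against 0.01 and 0.01 for all genes. ADAR and ADARB1 encode adenosine deaminases that edit double-stranded RNA, primary microRNAs among it.

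ADAR (ENSG00000160710, chromosome 1, 154582057 to 154628013, minus strand) separated all 3 groups. It had 422, 386 and 406 CPM with scramble, 461, 449 and 478 CPM with sh76 and 293, 314 and 303 CPM with sh78. Each sh78 library was below each scramble library, and each sh76 library was above. Of all genes tested, 11.2% had every sh78 library below scramble and 10.8% every sh76 library above it. For sh78 below sh76 the share was 10.9%. ADAR fell by 0.42 on the log2 scale with sh78 (SE 0.06, edgeR adjusted p 0.000991) and was also lower when the hairpins were set against each other, at −0.61 for sh78 relative to sh76 (SE 0.06, edgeR adjusted p 0.000122). These 2 calls were made in all 17 alternatives run for each. With sh76 the log2 fold change of 0.19 was not called (edgeR adjusted p 0.0813) but was with the replicate block (adjusted p 0.000609).

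ADARB1 (ENSG00000197381, chromosome 21, 45073853 to 45226560, plus strand) had 16.7, 16.8 and 11.8 CPM with scramble, 9.44, 10.9 and 9.21 CPM with sh76 and 12.8, 13.9 and 10.3 CPM with sh78. It fell by 0.62 on the log2 scale with sh76 (SE 0.16, edgeR adjusted p 0.0477), a call near the threshold that was lost in 7 of the 9 fits that left out 1 library, with adjusted p from 0.021 to 0.17. With sh78 the log2 fold change was −0.29 (edgeR adjusted p 0.38), and sh78 relative to sh76 gave 0.33 (adjusted p 0.345, and 0.0436 with the replicate block).

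Nuclear export and precursor handling held 13 genes, of which 12 were tested, and the only call was TUT7, which rose with sh76. TUT7 (ENSG00000083223, chromosome 9, 86287733 to 86354454, minus strand) encodes a terminal uridylyl transferase that adds uridines to microRNA precursors and to mRNAs. It had 33.9, 33 and 29.5 CPM with scramble, 43.2, 46.6 and 39.3 CPM with sh76 and 36.7, 41.1 and 33.2 CPM with sh78. The log2 fold change was 0.42 with sh76 (SE 0.10, edgeR adjusted p 0.0312) and 0.20 with sh78 (adjusted p 0.325). Leaving out scramble replicate 2 or 3 or sh76 replicate 1 or 2 ended the sh76 call (adjusted p 0.0664 to 0.159), and sh78 relative to sh76 gave −0.22 (adjusted p 0.293). With the replicate block edgeR called TUT7 for sh78 and between the hairpins as well (adjusted p 0.0308 and 0.0133). The median of the 12 was −0.03 with sh76 and 0 with sh78.

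Among 29 tested genes for chaperones that load Argonaute and for helpers of its complex, HSP90AA1 rose with sh76 and no other gene was called for either hairpin. HSP90AA1 (ENSG00000080824, chromosome 14, 102080738 to 102139699, minus strand) encodes the inducible cytosolic HSP90, which holds Argonaute open for a duplex. It had 1982, 2326 and 2034 CPM with scramble, 2699, 2979 and 2629 CPM with sh76 and 2106, 2595 and 2180 CPM with sh78. Its log2 fold change was 0.39 with sh76 (SE 0.09, edgeR adjusted p 0.023) and 0.12 with sh78 (adjusted p 0.55). Leaving out scramble replicate 1 or 3 or sh76 replicate 2 ended the sh76 call (edgeR adjusted p 0.0686, 0.102 and 0.124). Set against sh76, sh78 gave −0.27 (edgeR adjusted p 0.107). The replicate block called HSP90AA1 for sh78 and between the hairpins too (edgeR adjusted p 0.0281 and 5.02e-07). The gene shares 197 exonic bases with WDR20 on the other strand, and its copy HSP90AA2P had 121 to 284 counts, so its counts are uncertain to that extent. HSP90AB1, HSPA8 and PTGES3, the next most abundant of the list, were not called.

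Silencing effectors, that is the TNRC6 paralogs, the CCR4-NOT and PAN deadenylases and the decapping factors, made up the longest list, with 34 genes, all tested. None (0) was called by edgeR with either hairpin or between them, 2, 0 and 3 had an unadjusted p under 0.05, DESeq2 called 1, 0 and 1, and limma 0. Over all genes edgeR called 3.58%, 4.41% and 3.7%, and 17.4%, 17.5% and 16.3% had an unadjusted p under 0.05. The medians were 0.02 with sh76 and 0.06 with sh78. The replicate block called 5, 4 and 6 of the 34, beside 20.4%, 19.9% and 18.3% of all genes. PABPC1, LSM14A, CNOT3 and TOB1 were the most abundant.

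The PIWI clade, the germline relatives of the Argonautes, was close to silent: 1 of 4 genes passed the filter, PIWIL4, at 0.806 to 0.88 CPM in the group means, and edgeR did not call it (adjusted p 0.908 and 0.898, with 0 comparisons at an unadjusted p under 0.05).

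Of 31 polyadenylated transcripts that host microRNAs, 21 were tested and 1 was called, MIR100HG. MIR100HG (ENSG00000255248, chromosome 11, 122028327 to 122556721, minus strand) is the long noncoding host of miR-100, let-7a-2 and miR-125b-1, whose sequences are given above. It had 55, 68 and 72 counts with scramble, 33, 42 and 43 with sh76 and 65, 59 and 57 with sh78. In CPM these were 3.54, 3.99 and 4.13, then 2.04, 2.04 and 2.05, then 3.5, 4.06 and 3.7, so that every sh76 library lay below the other 6. Among all genes tested, 11.7% had every sh76 library below scramble, and 10.9% had every sh78 library above sh76. MIR100HG fell by 0.93 on the log2 scale with sh76 (SE 0.19, edgeR adjusted p 0.0166). With sh78 the log2 fold change was −0.05 (95% interval −0.45 to 0.34, adjusted p 0.925), and the difference between the hairpins was called (0.87, SE 0.19, edgeR adjusted p 0.0234).

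Both calls rest on low counts, and leaving out single libraries ended them. For sh76, leaving out scramble replicate 2 or 3 or sh76 replicate 2 or 3 ended the call (edgeR adjusted p 0.0565 to 0.0706), and the difference between the hairpins was lost in 6 of the 9 such fits, those without any 1 of the sh76 or sh78 libraries, although the log2 fold change of MIR100HG stayed between −0.99 and −0.89 with sh76. The replicate block called both (edgeR adjusted p 0.000683 and 0.00162). Over the 21 host transcripts the median log2 fold change was 0.23 with sh76, with 16 above 0, and −0.12 with sh78, with 7 above 0, against 0.01 and 0.01 over all genes tested. For sh78 against sh76 it was −0.22, with 3 above 0, against 0 over all genes. At an unadjusted p under 0.05 edgeR found 5, 1 and 6 of the 21 in the 3 comparisons, beside 17.4%, 17.5% and 16.3% of all genes. On the log2(FPKM + 1) scale the medians with sh76 and sh78 were 0.09 and −0.01, and on log2(FPKM + 0.1) they were 0.20 and −0.06. The sh78 median was −0.04 without scramble replicate 2 or sh78 replicate 3, −0.05 without scramble replicate 3 and −0.07 without sh78 replicate 1, in fits that tested 21 or 22 of these transcripts. The replicate block called 4 higher and 1 lower of the 21 with sh76 and 0 with sh78, beside 20.4% and 19.9% of all genes in either direction. Host transcripts measured as poly-A RNA do not give the level of the microRNAs.

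**Figure D5:**
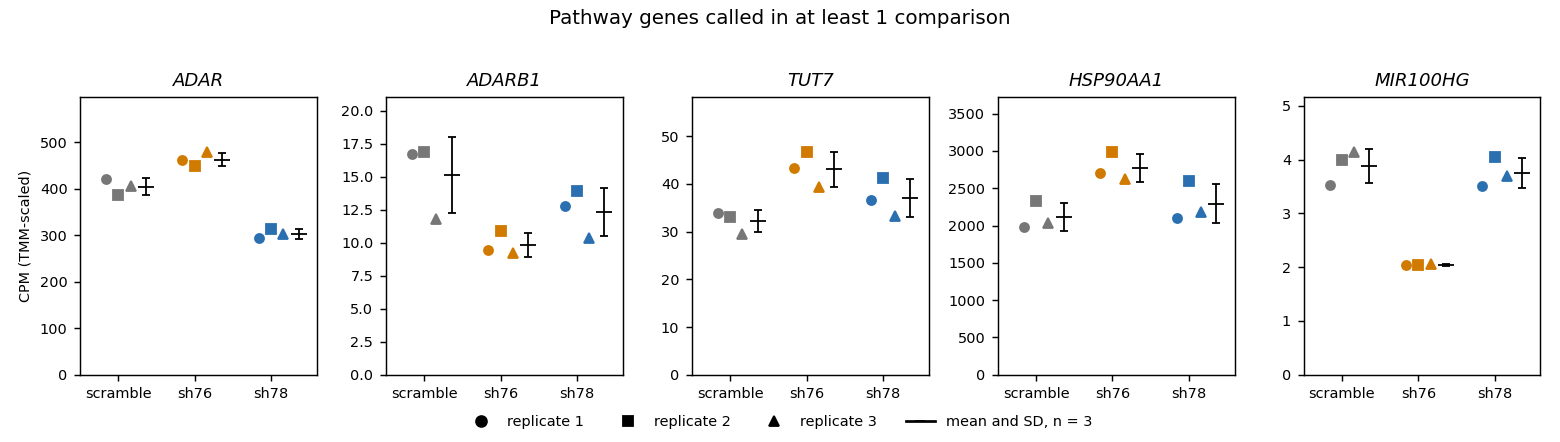
CPM (TMM-scaled, vertical axis from 0) of the 5 cofactor genes called in at least 1 comparison, by library and group, with the mean and SD of 3. ADAR is lowest in the sh78 libraries, at 293 to 314 CPM, and MIR100HG is lowest in the sh76 libraries, at 2.04 to 2.05 CPM.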

How the data were processed

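Poly-A libraries of 9 samples were analysed. HISAT2 2.0.5, featureCounts 1.5.0-p3 and the build hg38 are named in the submitters' processing notes; settings and annotation are not given in the sources used here. The authors deposited raw counts per gene and FPKM values; the FPKM equalled the counts over gene length and 1 size per library. All 58735 gene identifiers had the same start and end in GENCODE 29 (GRCh38), whose coordinates are used. Per the labels' protocols the libraries were non-directional. Tests on the counts used edgeR 4.0.16 under R 4.3.3 (filterByExpr, minimum count 10 and total 15; TMM; robust quasi-likelihood F test over all 9 samples; Benjamini-Hochberg over 17023 genes; called under 0.05). DESeq2 1.42.0 and limma 3.58.1 on log2(FPKM + 1) and log2(FPKM + 0.1) served as alternatives, with RLE factors, no filter, 2 groups only, a replicate block and leave-one-out fits. The procedure was tested on simulated counts with 1 spread for all genes and no replicate effect, unlike these data. It recovered 50.5% (sh76) and 61.2% (sh78) of log2 changes of 0.5, and 99% and 100% of changes of 1. Samples with the same replicate number deviated together (r 0.142 to 0.391 in 9 pairs, −0.31 to 0.064 in 18 others). The main fit nevertheless carried no replicate term, so its calls and intervals ignore this pairing. The fit with the replicate block is given beside it. Named genes are all members, GPX3, up to 6 called genes per list and the most abundant of each list. The members and lists were chosen with earlier results of these data known. Intervals use the quasi-likelihood standard error of the main fit.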

Additional observations from a re-analysis of the deposited data

Results flagged for a closer look

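The hairpins differed from each other, by the direct edgeR test of sh78 against sh76, in 2 cofactor genes. ADAR was at −0.61 on the log2 scale between them (edgeR adjusted p 0.000122), with 303 ± 10.3 CPM for sh78 and 463 ± 14.5 CPM for sh76 (SD, n = 3), and 405 ± 17.8 CPM for scramble between the 2. MIR100HG was at 0.87 (edgeR adjusted p 0.0234), with 3.75 ± 0.282 CPM for sh78, 2.04 ± 0.0095 CPM for sh76 and 3.89 ± 0.312 CPM for scramble. The SD of MIR100HG within sh76 comes from libraries of 33 to 43 counts. Counts so low cannot fix a level that closely, so this SD overstates the precision. No core member was called between the hairpins in the same test. With 3 samples in each group, single outlying samples were not looked for.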

How the results depend on the processing

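No core member was called under any alternative other than the replicate block, which called 2 of 10 for sh76 (DICER1, AGO2), 1 for sh78 (DROSHA) and 4 between the hairpins (DROSHA, DICER1, AGO2, AGO3). Of 510 refitted member values, 18 changed sign without being called on either side, none larger than 0.13 in size. In the order sh76, sh78 and between the hairpins, all genes called were 610, 750 and 629; with the replicate block 3467, 3388 and 3117; without the low-count filter 1149, 1212 and 1125. Leave-one-out fits gave 237 to 655, 418 to 810 and 273 to 780 genes; the lowest were without sh76 replicate 2, scramble replicate 2 and sh76 replicate 2. Counts also fell by over 1.5 times without scramble replicate 2 (313), scramble replicate 3 (333) or sh76 replicate 3 (339) for sh76; without scramble replicate 3 (458), sh78 replicate 2 (469) or 3 (453) for sh78; and without sh76 replicate 3 (368) or sh78 replicate 1 (344), 2 (375) or 3 (351) between the hairpins. On log2(FPKM + 1) of genes of at least 1 FPKM, limma called 386 for sh76 and 380 between the hairpins. Cofactor genes called were 4, 1 and 2; with the replicate block 24, 15 and 23; without the filter 8, 2 and 8; on each of the 3 limma settings 0 for sh76 and 1 between the hairpins; with DESeq2 4 between the hairpins. Leave-one-out fits gave 0 to 5, 1 to 1 and 1 to 3; for sh76, 2 without scramble replicate 1 or sh76 replicate 3, 1 without scramble replicate 2 or 3, and 0 without sh76 replicate 2. The causes were not tested. The alternatives run for the Argonaute shares could not show how stable they are. TMM scaling cancels in a share within a library, and leaving out 1 of 3 libraries cannot move a group mean by a whole SD. Depth limits MIR100HG, at 33 to 72 counts per library, more than the members, whose lowest count was 266.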
